A study of Arabidopsis thaliana with 6 samples.

Results

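The data described here are the transcript signals of 2 genes of cuticular wax synthesis, WSD1 and CER1, in whole Arabidopsis thaliana plants of the mutant sni1 and of wild type. WSD1 (AT5G37300) and CER1 (AT1G02205) are each measured by 1 probe set of the Affymetrix ATH1 array, which reports a transcript through a group of short probes (probe set ID.249614_at for WSD1 and probe set ID.264146_at for CER1). They are 2 of the 22746 probe sets that are not array controls, and both are of the plain type whose probes are meant to match a single transcript. The probe sets were picked by identifier with their sni1 and wild-type signals on these arrays already known. Their difference between the genotypes is therefore given as a description, without a test. The platform annotation used for all other probe sets names the WSD1 probe set and has no entry for the CER1 probe set, whose gene is the one given when it was selected.

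The sni1 samples came from 1 mutant line in the Col-0 background, which the labels call a radiation-induced mutation in At4g18460, and the wild-type samples were Col-0. Each genotype has 3 arrays with replicate numbers 1 to 3, each from whole plants at growth stage 3.90, grown on soil at 22 °C after 3 days of cold at 4 °C. The SNI1 protein is known to restrain systemic acquired resistance, and the series compares the transcript profiles of the genotypes. The labels give neither the number of plants in a sample nor whether samples were sown separately, so a p-value rests on a spread between arrays that may be purely technical.

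The cuticle covers the aerial epidermis and is made of cutin and of waxes, which limit water loss. Epidermal cells elongate fatty acids to very long chains and convert them along separate branches. In the alkane branch CER1 acts with CER3 to form very-long-chain alkanes, the main class of stem and leaf wax in Arabidopsis. In the alcohol branch CER4 forms primary alcohols and WSD1, a bifunctional wax ester synthase and diacylglycerol acyltransferase, joins them with acyl groups into wax esters. The products leave the cell through plasma membrane transporters.

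All signals are MAS5 intensities on a linear scale. With 2% of values trimmed at each end, the mean of every array was 100.01. Array medians lay between 36.7 and 40.3 in sni1 and between 34.6 and 40.8 in wild type. SNI1 was not analysed here, and AT4G18460, the gene of the label, had signals of 44.3, 32.5 and 28.2 in sni1 and of 41.0, 40.04 and 37.2 in wild type (log2 fold change -0.18, limma adjusted p = 0.906). That AT4G18460 carries the mutation rests on the label alone and was not checked, so its signal says nothing about SNI1. RNA integrity was read from control probe sets at both ends of a transcript. For actin the 3′ signal over the 5′ signal ran from 3.29 to 7.61 in sni1 and from 2.58 to 4.75 in wild type. For GAPDH it ran from 1.17 to 1.51 in sni1 and from 1.12 to 1.75 in wild type. The part of RNA integrity in the results was not tested.

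WSD1 had lower signal in every sni1 array than in every wild-type array. Its signal was 19.7, 16.7 and 32.4 in sni1 replicates 1, 2 and 3, against 72.7, 74.2 and 78.8 in wild-type replicates 1, 2 and 3. The sni1 arrays all lay below their array's median and the wild-type arrays all above it. The mean was 23.0 ± 8.33 in sni1 and 75.3 ± 3.19 in wild type (SD, n = 3 each), so that sni1 stood at 30.5% of wild type.

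On the log2 scale, after adding a constant of 2.8668 to each signal, the WSD1 fold change (sni1 minus wild type) was -1.64 ± 0.245 (SE). The lowest wild-type signal was 2.24 times the highest sni1 signal. The sni1 mean of WSD1 lay under the filter on low values, a mean over all arrays of at least 24.5, and the probe set passed this filter through its wild-type arrays. At such low signals a part of the intensity can be background, so the fold change of WSD1 depends on the constant added. It was -1.34 with a larger constant of 12.16 and -1.77 with none.

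CER1 also had lower signal in every sni1 array than in every wild-type array. Its signal was 299, 327 and 276 in sni1 replicates 1, 2 and 3, against 1072, 805 and 631 in wild-type replicates 1, 2 and 3. The mean was 301 ± 25.4 in sni1 and 836 ± 222 in wild type (SD, n = 3 each), or 35.9% of wild type. All 6 signals lay far above the array medians, so that the constant mattered little. The CER1 fold change was -1.44 ± 0.220 (SE) on the same scale and ran only from -1.45 without a constant to -1.41 with the larger one. The lowest wild-type signal of CER1 was 1.93 times its highest sni1 signal.

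Every sni1 array below every wild-type array was seen in 6.63% of the 13648 tested probe sets, and sni1 lower in all 3 same-numbered pairs in 23.4%. A fall on the log2 scale at least as large as that of CER1 was seen in 0.0879%, which is 12 probe sets with CER1 among them, and one at least as large as that of WSD1 in 0.0220%, or 3 probe sets. Because the genes were chosen on this contrast, these shares describe where they stand and support nothing. In whole-plant RNA, fewer epidermal cells and less transcript per epidermal cell cannot be told apart.

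**Figure D1:**
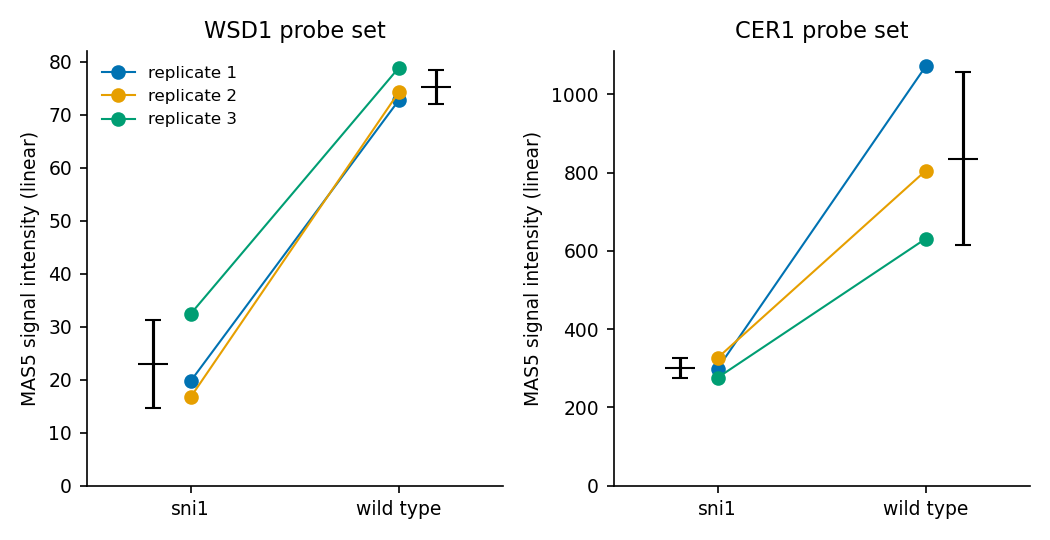
MAS5 signal intensity (linear axis from 0) of the WSD1 and CER1 probe sets in sni1 (left of each panel) and wild type (right), with a point per array, lines between arrays of the same replicate number, and black bars for the mean ± SD (n = 3). WSD1 was 16.7 to 32.4 in sni1 and 72.7 to 78.8 in wild type, and CER1 was 276 to 327 in sni1 and 631 to 1072 in wild type.

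The spread of the genes lay in opposite genotypes. For WSD1 the coefficient of variation was 36.3% in sni1 and 4.24% in wild type. For CER1 it was 8.44% in sni1 and 26.6% in wild type. Among all tested probe sets, 84.4% had a smaller log2 SD than WSD1 over the sni1 arrays and 3.98% had a smaller one over the wild-type arrays. For CER1 these shares were 18.0% in sni1 and 71.6% in wild type. With 3 arrays per genotype the difference in spread was not tested. The tested probe sets were not matched for signal, and the sni1 signals of WSD1 lay under the array medians. The part of low signal in its spread was not tested.

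The size of the difference varied between the replicate numbers. The replicate numbers pair the arrays, judged from correlations across probe sets of 0.66, 0.58 and 0.71 between same-numbered arrays in their deviations from the genotype mean. In WSD1 the log2 difference within a pair was -1.74, -1.98 and -1.21 for replicates 1, 2 and 3. The smallest of these came with the highest sni1 signal, in replicate 3. In CER1 it was -1.83, -1.29 and -1.19 for these pairs, and the largest came with the highest wild-type signal, in replicate 1. For neither gene did any pair show a wild-type signal less than 2.29 times that of sni1. With the replicate number in the fit the fold changes stayed the same and their SE was smaller, at 0.193 for WSD1 and 0.126 for CER1.

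Differences between replicate numbers are not part of the genotype contrast and were tested. The genes were however picked with the signals of all arrays known. A choice of genes whose genotypes separate clearly also favours a small spread between replicates. Not passing this test can therefore come in part from the choice and is no support for an even signal between replicates. The mean log2 value over both genotypes was 5.37, 5.28 and 5.75 for WSD1 in replicates 1, 2 and 3, and 9.16, 9.01 and 8.72 for CER1. The highest of these means for WSD1 and the lowest for CER1 were both in replicate 3. Neither gene passed the moderated F test of limma with genotype in the fit (adjusted p = 0.269 for WSD1 and 0.109 for CER1, unadjusted p = 0.161 and 0.0462), while 31.2% of all tested probe sets did. The CER1 difference passed without sni1 replicate 1 (adjusted p = 0.00847), where 1 residual degree of freedom is left before moderation, and in none of the other 14 alternatives. Its adjusted p over all alternatives ran from 0.00847 to 0.534, and that of WSD1 from 0.0907 to 0.886.

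**Figure D2:**
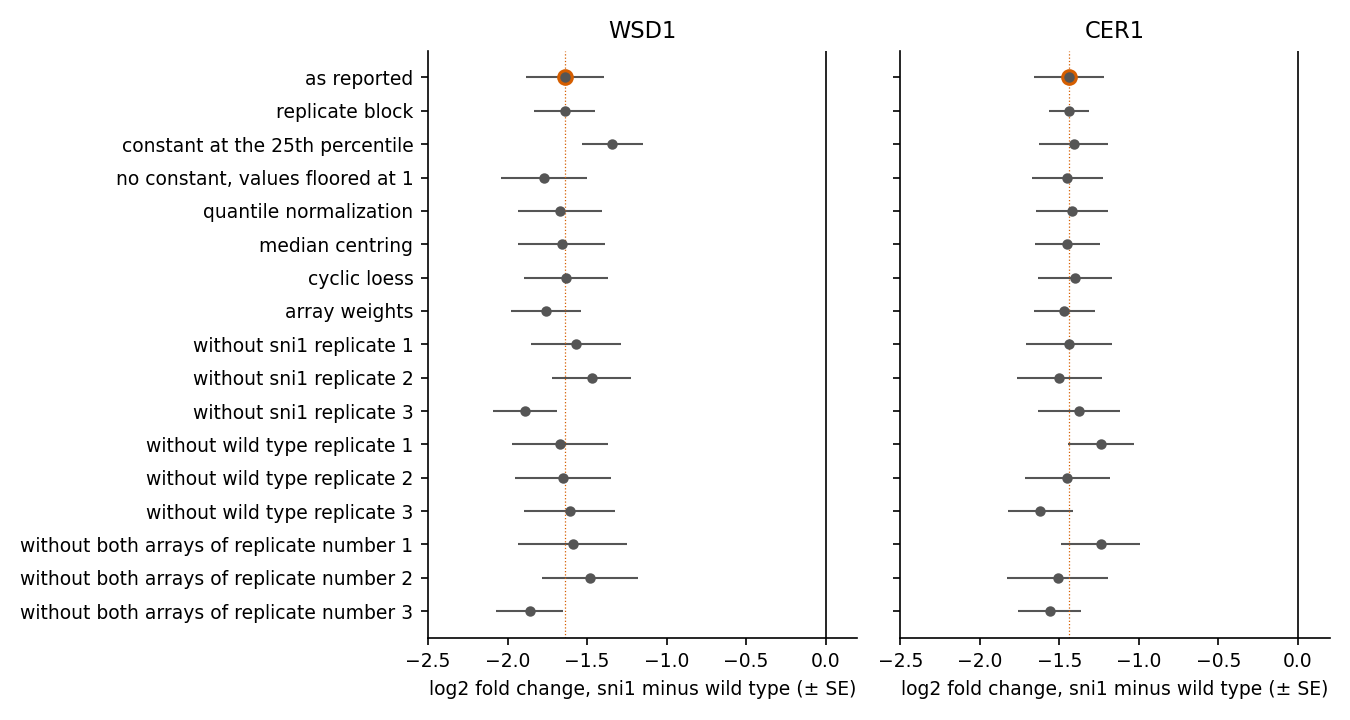
The log2 fold change (sni1 minus wild type) of WSD1 and CER1 with its SE as reported (top, orange, dotted line) and under each alternative (grey). WSD1 ran from -1.89 to -1.34 and CER1 from -1.62 to -1.24, and no alternative reached 0. Leaving out arrays could not turn the sign, since every sni1 array lay below every wild-type array.

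Of the other genes of the cuticle pathways, few were measured by a named probe set. Lists for the alkane branch, the alcohol and ester branch, chain elongation, export, regulators, cutin and suberin held 105 genes besides WSD1 and CER1. A named probe set was found for 13 of them and 8 passed the filter. The annotation has no entry for 8730 probe sets, that of CER1 among them. The other listed genes may therefore be on the array without a name. In the limma fit over all probe sets, 0 of these 8 passed in either direction, against 0.520% of all tested probe sets higher and 0.0293% lower in sni1, and 1 of the 8 had an unadjusted p under 0.05, against 8.49% of all tested probe sets. With the replicate number as a block 1 passed as higher and 0 as lower, against a background of 6.15% higher and 3.88% lower. With 8 genes and such shares, these counts say nothing particular about the pathways. The median log2 fold change of the 8 was 0.15, beside -0.0051 over all tested probe sets.

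The gene that passed with the block was in the alcohol and ester branch. AT5G12420, which the list places in the WSD family with WSD1, had a signal of 34.8, 33.3 and 59.97 in sni1, against 25.3, 17.2 and 21.0 in wild type. Its sni1 arrays lay above all wild-type arrays, as in 7.73% of tested probe sets and the reverse of WSD1, and sni1 replicate 3 was the highest array for both genes within that genotype. The AT5G12420 log2 fold change was 0.89 ± 0.283 (SE), with a limma adjusted p of 0.380 in the fit without the replicate block and of 0.0397 in that with it. Its wild-type mean of 21.2 was under the filter value of 24.5. The probe set entered the test through its higher sni1 arrays, so its call is not support for a rise.

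The other family member tested, AT3G49210, overlapped between the genotypes. It had signals of 34.3, 36.1 and 53.8 in sni1 and of 28.3, 43.3 and 31.9 in wild type (log2 fold change 0.24, limma adjusted p of 0.901, and of 0.537 with the block). A further pair on the same list, AT1G72110 and AT3G49190, lay under the filter, with means of 9.15 and 16.8 in sni1 and of 10.95 and 14.5 in wild type.

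In chain elongation, CER26, a protein of the CER2 type that is needed for the longest acyl chains of leaf wax, had signals of 353, 441 and 359 in sni1 and of 361, 546 and 395.5 in wild type. It was lower in sni1 in each pair and did not pass (log2 fold change -0.16, limma adjusted p of 0.916, and of 0.356 with the block). CER26-LIKE stood at 0.13 (adjusted p of 0.960, and of 0.728 with the block). In export, ECHIDNA (ECH), a protein of the trans-Golgi network, had 258, 254 and 257 in sni1 and 232, 224 and 297 in wild type, a log2 fold change of 0.042 (adjusted p of 0.977, and of 0.856 with the block).

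Among the regulators, DEWAX, an AP2/ERF transcription factor known to repress CER1 and other wax genes, had signals of 1000.0, 1035 and 786 in sni1, against 865, 816 and 821 in wild type. The genotypes overlapped, and the DEWAX log2 fold change of 0.16 ± 0.175 (SE) did not pass (limma adjusted p of 0.901, and of 0.357 with the block). AT5G07580 stood at -0.0083 (0.997 and 0.972) and AT1G55270 at 0.19 (0.916 and 0.518). SHN3, a factor of the SHINE type that promotes cuticle formation, was under the filter with 2.81 to 8.93 in sni1 and 1.37 to 6.00 in wild type. On the cutin list, AT5G33370 was also under it, with 36.4, 7.32 and 5.40 in sni1 and 36.9, 14.9 and 20.2 in wild type. No suberin gene had a named probe set.

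**Figure D3:**
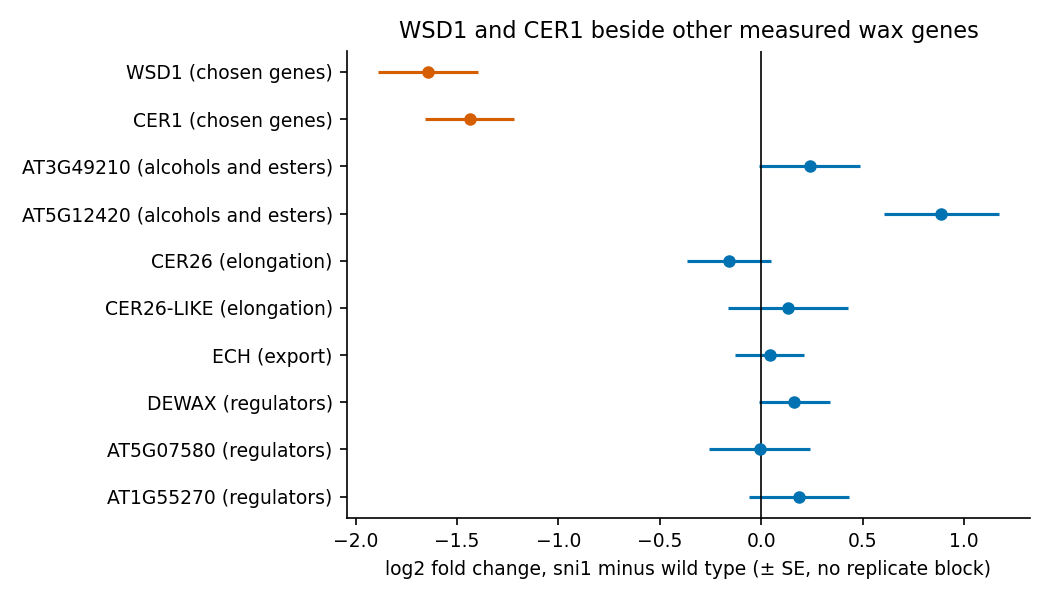
The log2 fold change (sni1 minus wild type, horizontal axis, bars SE, fit without the replicate block) of WSD1 and CER1 (orange, chosen on this contrast) and of the 8 other tested genes of the wax lists (blue). The blue points lie between -0.16 and 0.89, to the right of WSD1 at -1.64 and CER1 at -1.44.

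Few markers of the tissues that carry or lack wax had a named probe set. The others may be measured by probe sets that the annotation does not name. The lists for the shoot epidermis, green leaf tissue and flowers had no named probe set, so the share of epidermis in the samples was not tested. Of the guard cell list, FAMA, a transcription factor of the stomatal lineage, had 59.3 to 72.4 in sni1 and 45.1 to 57.4 in wild type (log2 fold change 0.30, limma adjusted p of 0.739, and of 0.252 with the block). Of the trichome list, TRY, a MYB protein that limits trichome number, had 21.7 to 43.7 in sni1 and 12.7 to 65.0 in wild type (-0.017, adjusted p of 0.997, and of 0.975 with the block). Of the root list, EXPA7, a root hair expansin, was under the filter with 5.95 to 13.8 in sni1 and 13.9 to 16.6 in wild type. The part of tissue composition in the fall of WSD1 and CER1 was not tested.

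The genes beside WSD1 and CER1 on the chromosomes were examined as well, a choice made after the data were in hand. Gene order was taken from the TAIR10.1 assembly. Of the 10 nearest protein-coding genes, 5 on each side, 4 had a named probe set for WSD1 and 5 for CER1. AT1G02210, directly beside CER1, had none. In all, 7 neighbours were tested, and 0 passed the limma fit without the block. Among all tested probe sets 0.520% passed that fit as higher and 0.0293% as lower. None of the 7 had an unadjusted p under 0.05, against 8.49% of all tested probe sets. AT5G37290 and AT5G37310, the direct neighbours of WSD1, stood at -0.041 and 0.22 on the log2 scale. With the replicate block 1 of the 7 passed as lower, against 3.88% of all tested probe sets. It was AT5G37360, which lies 5 genes from WSD1 (-0.38, limma adjusted p = 0.0282, and 0.839 without the block). Next to CER1, AT1G02190, which the list places in the alkane branch, had signals of 1.17, 7.57 and 1.06 in sni1 and of 11.3, 2.07 and 1.79 in wild type. All 6 lay under the filter value, and the highest, in wild-type replicate 1, compares with a 10th percentile of 3.75 on that array.

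Patterns were then compared over the 6 arrays by the root mean square difference between log2 values, each probe set being centred on its own mean, so that a small value means a like pattern. WSD1 and CER1 differed by 0.422. CER1 was number 16 of 13647 probe sets in likeness to WSD1, and WSD1 was number 61 in likeness to CER1. These ranks depended on the constant. With the larger constant they were 27 and 18, and with none 17 and 122. The median difference of all tested probe sets was 0.898 from WSD1 and 0.790 from CER1. WSD1 and CER1 were both chosen on the genotype contrast, which enters this measure, so their likeness to each other follows in part from the choice. Genes that resemble either one share its genotype difference by construction, so no test is given for them. Likeness took in all 6 arrays, so a like order and spread of the arrays within a genotype comes with the choice too.

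The probe sets with 1 named gene that were most like WSD1 were AT1G06980 (root mean square difference 0.333), AT2G18890 (0.398), AT4G25770 (0.401), AT3G05640 (0.404), BZIP61 (0.426) and AT5G22580 (0.429). Of the 20 probe sets nearest to WSD1 only 6 had 1 named gene, and the smallest difference among all was 0.315. AT1G06980 had 21.4, 10.5 and 32.4 in sni1 and 40.3, 45.9 and 60.6 in wild type, with replicate 2 lowest and replicate 3 highest among the sni1 arrays, as in WSD1. BZIP61, a transcription factor of the basic leucine zipper class, had 65.1, 74.4 and 123 in sni1 and 134, 155 and 172 in wild type. AT4G25770 had 27.4, 9.10 and 21.3 in sni1 and 69.6, 46.1 and 54.6 in wild type, and differed from WSD1 in that replicate 1 was its highest array in each genotype. The sni1 means of AT1G06980 (21.4) and AT4G25770 (19.3) lay under the filter value of 24.5. Both were tested through their wild-type arrays, and their sni1 signals can be partly background.

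Among probe sets with 1 named gene, most like CER1 were TINY2 (root mean square difference 0.187), AT4G28780 (0.233), AT5G02890 (0.262), AT2G39850 (0.262), AT3G21950 (0.272) and ATLP-1 (0.279). Nearer probe sets without a single named gene were passed over, and the smallest difference from CER1 among all was 0.179. TINY2, an AP2/ERF transcription factor of the DREB group, had 16.9, 16.2 and 16.5 in sni1 and 51.05, 41.1 and 28.2 in wild type. As in CER1, its sni1 arrays lay close together and its wild-type arrays were highest in replicate 1 and lowest in replicate 3. AT4G28780 had 70.7, 53.4 and 43.9 in sni1 and 208, 117 and 98.5 in wild type, with the same order of wild-type arrays. ATLP-1, a thaumatin-like protein, had 25.2, 21.7 and 19.0 in sni1 and 59.6, 44.7 and 31.3 in wild type. The sni1 means of TINY2 (16.6), AT3G21950 (22.0) and ATLP-1 (21.95) lay under the filter value of 24.5. These genes were tested through their wild-type arrays. Their sni1 signals, with the close values of TINY2 among them, can be partly background. The names depended in part on the constant: with the larger constant 5 of the 6 for WSD1 and 4 of the 6 for CER1 were shared, and with none 4 and 6.

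**Figure D4:**
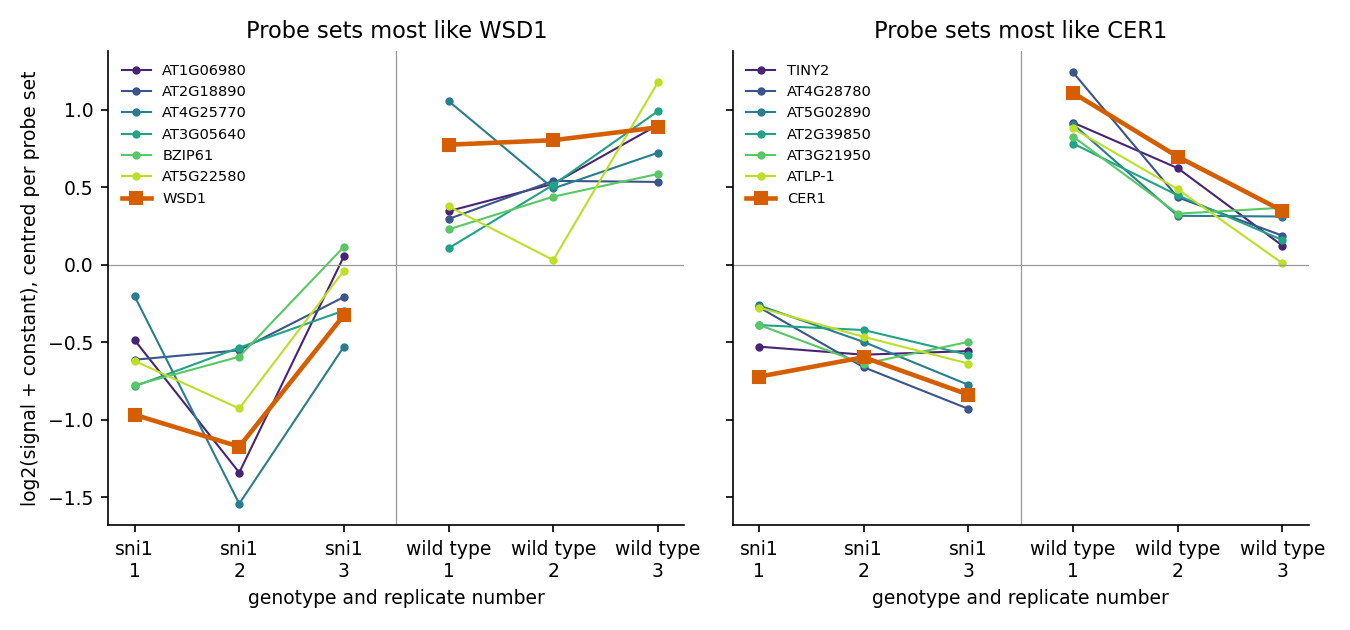
Log2(signal + 2.8668), centred on each probe set's mean over the 6 arrays, for WSD1 (left) and CER1 (right), in thick orange, and for the 6 named probe sets most like each. Arrays of sni1 stand left of wild type, and lines within a genotype only join points of the same probe set. WSD1 spread more among the sni1 arrays, and CER1 and the 6 genes most like it spread more among the wild-type arrays. Likeness was measured over all 6 arrays, so the choice itself favours such a shared spread.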

How the data were processed

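Transcript signals were measured on 6 ATH1 arrays, 3 of sni1 and 3 of wild type, grouped by the sample titles. The deposited values are signal intensities, 1 per probe set and array, from MAS5 per the submitters' processing notes, which name no version or settings. With 2% of values trimmed at each end, the mean of every array was 100.01. After leaving out 64 control probe sets, values were transformed as log2(value + 2.8668), a constant equal to the 10th percentile over the whole table, which understates fold changes of low signals. Probe sets with a mean under 24.5 (the 40th percentile of means) were left out, and 13648 were tested with limma 3.58.1 (lmFit, eBayes with trend; R 4.3.3). Tests were two-sided, and a Benjamini-Hochberg adjusted p under 0.05 counted as passing. Fold changes are sni1 minus wild type. Differences between replicate numbers were tested by the moderated F test with genotype in the fit. The number of arrays limits the precision.

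Gene names came from the platform annotation and the TAIR10.1 gene table. Of 14016 listed probe sets, 13513 had 1 gene, of which 13436 matched a locus, 503 had several, and 8730 probe sets had no entry. For a locus with more than 1 probe set the one with the highest mean was used. The 2 genes, the gene lists and the tests were chosen with earlier results of these data known. Genes named are WSD1 and CER1, of each wax, cutin or suberin list every gene called and the 4 largest fold changes, marker genes, and the 6 single-gene probe sets most like each gene, and the genes next to WSD1 and CER1, with list genes under the filter, were named in addition. The replicate numbers pair the samples by the correlations of same-numbered arrays (0.66, 0.58 and 0.71), while differently numbered arrays gave -0.53 to -0.054. Deviations from a genotype mean cancel out, so positive values within pairs make the others negative on average. The negative values are therefore no separate support. The pairing comes from the data, not from the labels, so the main fit leaves it out and the replicate block is given as an alternative. Alternatives covered the constant, the filter, normalization, the variance model, the replicate block and leaving out arrays. The procedure was tested on simulated data. Python 3.11.15 and matplotlib 3.10.9 made the figures.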

Additional observations from a re-analysis of the deposited data

How the results depend on the processing

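WSD1 and CER1 kept the direction of their fold changes under all 16 alternatives each, and none moved either value by more than the spread between replicates. Because every sni1 array lay below every wild-type array, leaving out arrays could not turn the direction. The replicate block cannot change a fold change in this balanced design. The kept direction is therefore no support for the fall. With 1 array left out, WSD1 was lowest without sni1 replicate 3 (-1.89) and highest without sni1 replicate 2 (-1.47), and CER1 from -1.62 (without wild-type replicate 3) to -1.24 (without wild-type replicate 1). Dropping a same-numbered pair, an alternative chosen after seeing the data, gave -1.86 to -1.48 for WSD1 and -1.56 to -1.24 for CER1. The adjusted p of the differences between replicate numbers ran, with 1 array left out, from 0.144 to 0.886 for WSD1 and from 0.00847 to 0.534 for CER1. The number of other wax and cuticle genes called higher was 0, and 1 with the replicate block, and the number called lower was 0 throughout. In all, 75 probe sets passed. The count was 1369 with the replicate block, 137 with array weights, 46 with the filter at the 60th percentile and 5 to 71 with 1 array left out (5 without sni1 replicate 1 or 2). At the 60th percentile WSD1 itself was left out. Signs turned for genes near 0 that passed in no setting. With 1 array left out CER26 ran from -0.28 to 0.017, CER26-LIKE from -0.050 to 0.40, AT5G07580 from -0.17 to 0.20, AT1G55270 from -0.050 to 0.40 and ECH from -0.033 to 0.17. CER26 turned without wild-type replicate 2, CER26-LIKE without sni1 replicate 2 or wild-type replicate 3, AT1G55270 without wild-type replicate 1, and ECH without wild-type replicate 1 or 2. AT5G07580 turned without sni1 replicate 3 or wild-type replicate 1, and stood at 0.0011 with cyclic loess and 0.041 with array weights. Fits with 1 array left out had no block. The low sni1 signals of WSD1 limit how well the size of its fall is known.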
